A study of Mus musculus with 2 samples.

Results

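The genes described here remove reactive oxygen, keep glutathione and thioredoxin reduced, control that defence through NRF2, or belong to the NADPH oxidase that produces superoxide. The 41 genes were chosen by function from a list drawn up when the intensities and the diabetic over nondiabetic ratios of these arrays were already known, and each was required to have a named probe on the arrays. They are 41 of the 21360 genes named on the arrays, and because they were selected on that knowledge, all values below are descriptions of these arrays and none is a test.

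LSK cells are bone marrow cells without the surface markers of mature blood lineages that carry Sca-1 and c-kit, and they contain hematopoietic stem cells and early progenitors. Agilent mouse arrays hybridized in 1 colour were used to compare gene expression between LSK cells of nondiabetic mice and those of mice made diabetic by streptozotocin (STZ), a drug toxic to insulin-producing β cells. One group was nondiabetic C57BL/6J mice and the other was C57BL/6J mice with STZ-induced diabetes (STZ-DM), with 1 array for each. The labels give female mice for both arrays, whereas the study's text describes male mice, and the labels give neither age nor time after STZ. Each array held RNA pooled from 3 mice, and amplification started from 8.3 ng of total RNA. Spots well above background by the flag of the scanner software made up 62.7% of 59305 non-control spots for nondiabetic and 63.9% for diabetic mice, with median intensities of 29.8 and 32.2. With 1 array in each group, no difference had a replicate check.

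Superoxide is turned into hydrogen peroxide by superoxide dismutases, and the peroxide is removed by catalase, glutathione peroxidases and peroxiredoxins. Glutathione and thioredoxin supply the electrons for the peroxidases and are themselves reduced with NADPH, while the transcription factor NRF2, held back by KEAP1, switches on many of these genes. Hematopoietic stem cells are known to be sensitive to reactive oxygen, which drives them out of quiescence, and phagocytes use NADPH oxidase to kill microbes.

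Intensities are given as the scanner software wrote them, after its background subtraction and before scaling, and ± marks the software's own error estimate for a spot. Log2 ratios are diabetic over nondiabetic after each array was scaled on its 75th percentile, 168 on the nondiabetic and 182 on the diabetic array. The brightest probe stood for a gene. Some ratios are also given with normexp, another background correction (offset 50, on the median spot intensity). Of the 41 genes, 38 were well above background on both arrays, 2 (Gclm and Gsta4) on 1 array and 1 (Sod3) on neither. Among the 40 genes that gave a ratio or bound, 2 were at least 2-fold higher in diabetic mice (Gpx3 and Gstt1), against 11.0% of 15192 named genes, and 3 were at least 2-fold lower (Gsta3, Srxn1 and Gss), against 10.1%. Of the other 35, 33 differed by less, and the bounds of Gclm and Gsta4 lay under 2-fold, which does not limit how far they differed. By single probes, 4 of 53 member probes were at least 2-fold higher, against 11.9% of 19839 probes of named genes, and 4 were at least 2-fold lower, against 10.9%. The median log2 ratio was 0.05 over the 40 genes and 0.02 over all 15192. Log2 ratios ran from -4.52 to 1.68, with 21 genes above 0 and 19 below. In RNA from a whole population of sorted cells, fewer cells of a type and less RNA per cell cannot be told apart.

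**Figure D1:**
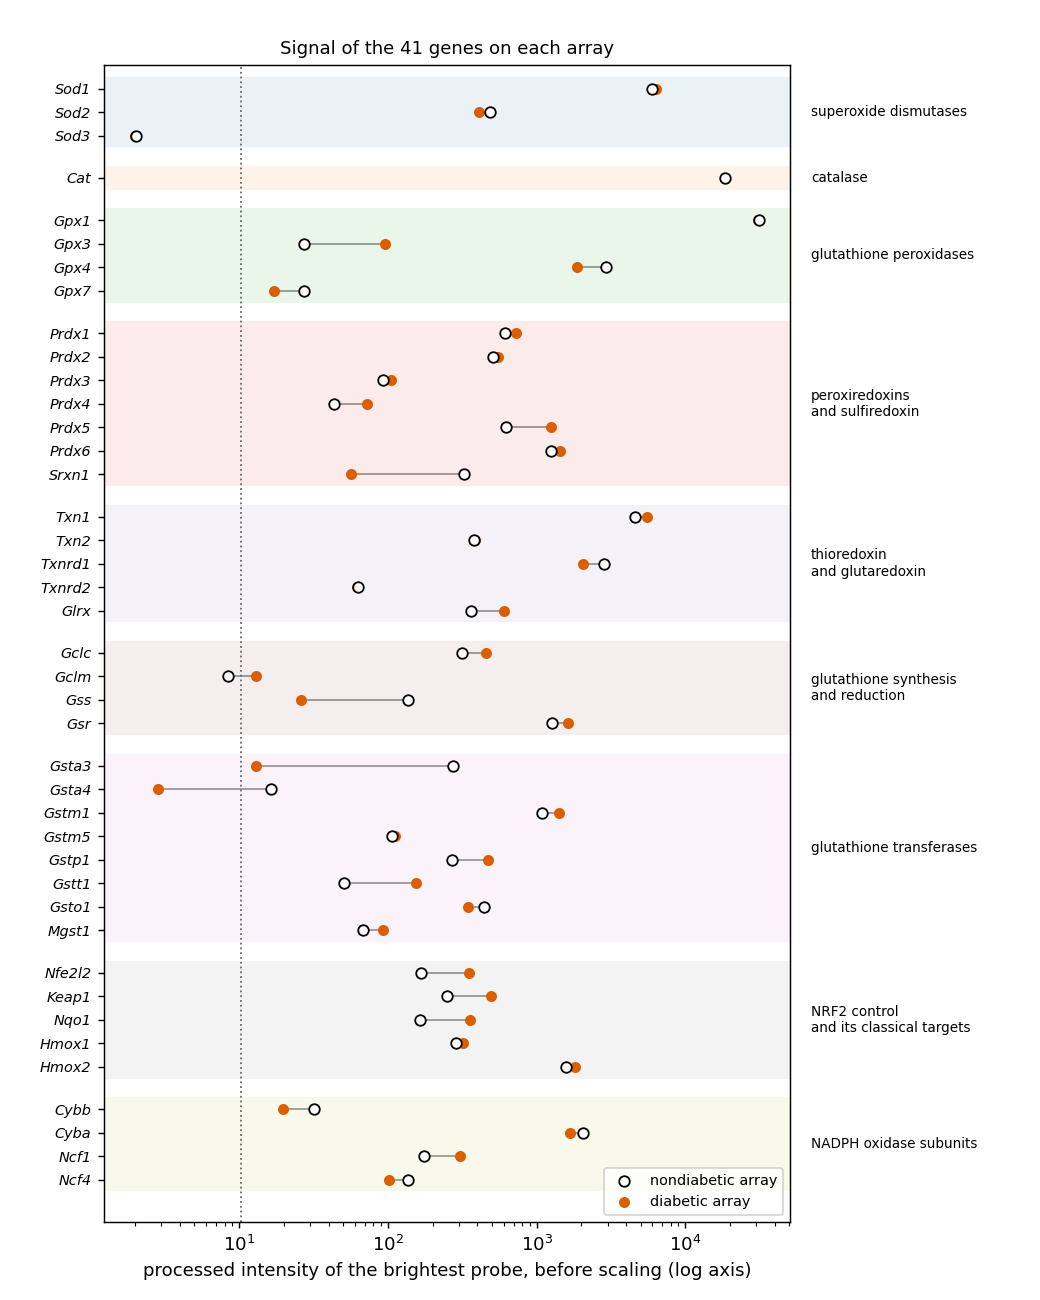
Processed intensity of the brightest probe of each of the 41 genes, on a log axis, before scaling. Open circles are the nondiabetic array, filled circles the diabetic array, a line joins the values of a gene, and the dotted line marks 10.2, the lowest intensity well above background on the nondiabetic array. Sod3 lies left of that line on both arrays, Gclm only on the nondiabetic and Gsta4 only on the diabetic array.

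Among the superoxide dismutases, neither of the genes that could be compared reached 2-fold. Sod1, the copper-zinc enzyme of the cytosol, measured 6015 ± 601 on the nondiabetic and 6374 ± 637 on the diabetic array, a log2 ratio of -0.03 that turned to 0.04 with normexp. Sod2, the manganese enzyme of mitochondria, was at 484 ± 48.5 and 408 ± 40.9, a log2 ratio of -0.36 with a software error of 0.20. Sod3, the secreted enzyme, stayed in the background range of both arrays, at 2.04 and 2.0, so it has no ratio.

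Catalase, which breaks hydrogen peroxide down in peroxisomes, had probes that differed in direction. The brightest probe of Cat (A_55_P2148873) read 18615 on the nondiabetic and 18546 on the diabetic array, a log2 ratio of -0.12. The other probe (A_51_P191611) read 88.2 and 175.0, a log2 ratio of 0.87. The mean over both probes was 0.37, above 0 where the brightest probe alone lay below it.

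Of the 4 glutathione peroxidases, 1 was at least 2-fold higher in diabetic mice and the other 3 lay below 0, with a median log2 ratio of -0.44 for the 4. Gpx3, the secreted plasma form, measured 27.5 ± 3.49 on the nondiabetic and 95.3 ± 9.76 on the diabetic array. After scaling this was 3.20-fold higher, a log2 ratio of 1.68 with a software error of 0.24. The gene has 1 spot on the arrays, and with normexp its log2 ratio was 0.80. Gpx1, the abundant cytosolic enzyme, read 31418 and 31062, a log2 ratio of -0.13. Gpx4, which reduces lipid peroxides in membranes and protects cells from ferroptosis, read 2919 ± 292 on the nondiabetic and 1883 ± 188 on the diabetic array. The diabetic value was 1.68-fold lower, a log2 ratio of -0.75 against an error of 0.20. Gpx7, a peroxidase of the endoplasmic reticulum, read 27.2 ± 3.44 and 17.0 ± 2.73, a log2 ratio of -0.79 with an error of 0.30, and normexp brought it to -0.23.

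Peroxiredoxins reduce peroxides through a reactive cysteine, and sulfiredoxin repairs that cysteine when it has been overoxidized. By their brightest probes the 6 peroxiredoxins lay between -0.01 and 0.89, while Srxn1, which encodes sulfiredoxin, was at least 2-fold lower. Srxn1 (A_55_P2033120, 1 spot) measured 327 ± 32.8 on the nondiabetic and 56.8 ± 6.18 on the diabetic array. It was 6.24-fold lower after scaling, a log2 ratio of -2.64 with an error of 0.21, and -1.82 with normexp.

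Prdx5, found in mitochondria, peroxisomes and the cytosol, read 620 ± 62.1 on the nondiabetic and 1243 ± 124 on the diabetic array, a log2 ratio of 0.89. Prdx4, the form of the endoplasmic reticulum, read 43.3 ± 4.85 and 71.9 ± 7.52, a log2 ratio of 0.61, or 0.32 with normexp. Both were higher in diabetic mice by more than the software error and by less than 2-fold. Prdx2, a cytosolic form abundant in red cells, read 507 and 548, a log2 ratio of -0.01 that turned to 0.02 when ratios were centred on their median. Prdx3, the mitochondrial form, was printed 10 times and gave the spread between spots directly. Its spots ran from 82.3 to 108 in nondiabetic mice, with a median of 94.3, and from 90.8 to 116 in diabetic mice, with a median of 107. The spots of the arrays overlapped, and the mean log2 ratio was 0.06 with an SD of 0.13 between spots.

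For Prdx1 and Prdx6 the result depended on the probe. Prdx1, a cytosolic form, read 618 ± 61.8 on the nondiabetic and 724 ± 72.4 on the diabetic array on its brightest probe (A_55_P2147427), a log2 ratio of 0.11. Its other probe (A_66_P119421) read 56.7 ± 6.11 and 529 ± 52.9, which is 8.60-fold higher, a log2 ratio of 3.10. The mean over these probes was 1.61, past 2-fold where the brightest probe was not. Prdx6, which also has phospholipase activity, had 4 probes. The brightest (A_55_P2103561) read 1244 and 1439, a log2 ratio of 0.09. The next (A_55_P2176731) read 1208 and 878, a log2 ratio of -0.58. A further probe (A_55_P2176729) read 1152 and 627, a log2 ratio of -0.99. The dimmest probe (A_52_P388359) was well above background in nondiabetic mice alone and was at least 1.53-fold lower in diabetic mice. A bound of this kind sets the measured value against the lowest intensity well above background on the other array, or against the dim probe's own value where that is higher. The mean over the probes of Prdx6 was -0.52, which reverses the sign of its brightest probe.

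None of the 5 thioredoxin and glutaredoxin genes reached 2-fold, and their median log2 ratio was -0.10. Txnrd1, the cytosolic reductase that passes electrons from NADPH to thioredoxin, read 2837 ± 284 on the nondiabetic and 2043 ± 204 on the diabetic array, a log2 ratio of -0.59. Glrx, a glutaredoxin that removes glutathione from protein thiols, read 364 ± 36.5 and 603 ± 60.3, a log2 ratio of 0.61. These genes differed in opposite directions, each by more than the software error of 0.20. Txn1, cytosolic thioredoxin, read 4585 and 5540, a log2 ratio of 0.16. The mitochondrial thioredoxin Txn2 read 381 and 387, a log2 ratio of -0.10. The mitochondrial reductase Txnrd2 read 62.7 and 61.9, a log2 ratio of -0.13. The last 3 differed by less than the software error.

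Glutathione is made in sequence by glutamate-cysteine ligase, formed by a catalytic subunit (Gclc) and a modifier subunit (Gclm), and by glutathione synthetase (Gss), and its oxidized form is reduced by glutathione reductase (Gsr). Gss was at least 2-fold lower in diabetic mice, and the other 3 genes lay above 0. Gss (A_52_P358860, 1 spot) measured 137 ± 13.9 on the nondiabetic and 25.9 ± 3.53 on the diabetic array. It was 5.73-fold lower after scaling, a log2 ratio of -2.52 with an error of 0.25, and -1.34 with normexp. Gclc read 315 ± 31.5 and 455 ± 45.5, a log2 ratio of 0.41. Gclm read 13.1 on the diabetic array and, at 8.35, lacked the flag for well above background on the nondiabetic array, which makes it at least 1.18-fold higher. The probes of Gsr lay on the same side of 0. Its brightest probe read 1263 and 1639, a log2 ratio of 0.26, and the other read 655 and 897, a log2 ratio of 0.34.

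Glutathione transferases couple glutathione to electrophiles. Of the 8 measured here, 1 was at least 2-fold higher in diabetic mice, 1 was at least 2-fold lower, and the median log2 ratio was 0.10. Gsta3, an alpha-class enzyme, had the lowest ratio of the 41 genes. Its brightest probe (A_55_P1961423) measured 275 ± 27.6 on the nondiabetic and 13.0 ± 2.51 on the diabetic array, 22.9-fold lower, a log2 ratio of -4.52 with an error of 0.31. Its other probe (A_51_P503625) read 77.7 ± 8.06 in nondiabetic mice and 9.64 in diabetic mice, where it was not well above background, which makes it at least 8.38-fold lower. Both probes were lower in diabetic mice, and normexp gave -2.31 for the gene.

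Gsta4, an alpha-class enzyme that acts on the lipid peroxidation product 4-hydroxynonenal, was printed on 9 usable spots. In nondiabetic mice they ran from 11.3 to 25.6 with a median of 16.4, and 8 of the 9 were well above background. In diabetic mice they ran from 2.10 to 6.68 with a median of 2.49, and 0 of the 9 were. The spots of the arrays did not overlap, and every spot was lower in diabetic mice, with log2 differences from -3.12 to -1.51 and an SD of 0.51. Since the diabetic value lay below the reliable range, the result is a bound of at least 1.76-fold lower. The alpha-class probes read closely related transcripts, and their cross-hybridization was not tested.

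**Figure D2:**
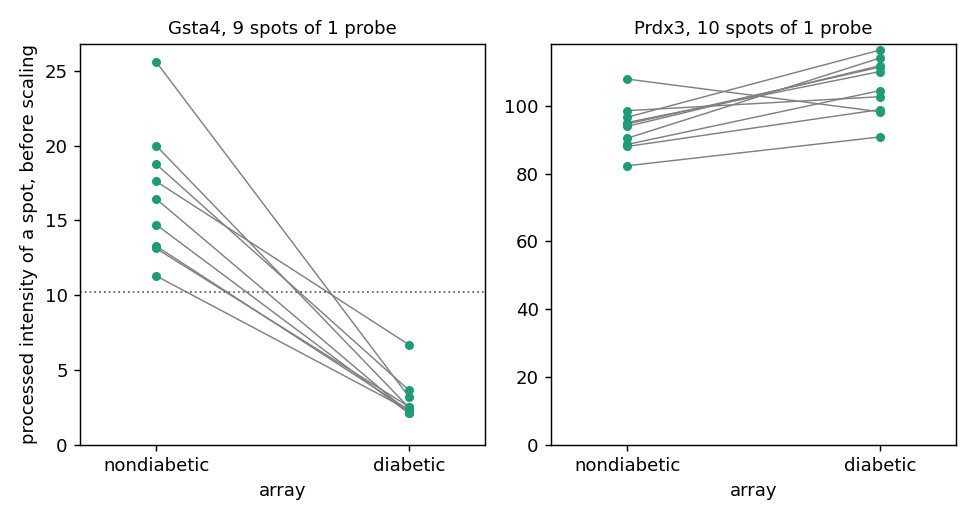
Processed intensity of every usable spot of the members printed repeatedly, Gsta4 (9 spots) and Prdx3 (10 spots), before scaling, with a line joining the same array position on the nondiabetic and the diabetic array. All Gsta4 spots are lower on the diabetic array and under the dotted line at 10.2, the lowest intensity well above background on the nondiabetic array, whereas the Prdx3 spots of both arrays overlap.

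Gstt1, a theta-class enzyme, measured 50.5 ± 5.52 on the nondiabetic and 155 ± 15.6 on the diabetic array. It was 2.82-fold higher after scaling, with an error of 0.21 on the log2 scale, and its log2 ratio was 0.86 with normexp. The remaining transferases differed by less than 2-fold on every probe with a measured ratio. Gstp1, the pi-class enzyme, read 268 and 470 on its brightest probe, a log2 ratio of 0.69, and 199 and 256 on the other, a log2 ratio of 0.24. Gsto1, an omega-class enzyme, read 445 and 348, a log2 ratio of -0.47. Mgst1, a membrane-bound form, read 68.1 and 93.1, a log2 ratio of 0.33, and its other probe was at least 1.44-fold higher. The mu-class genes differed by less than 2-fold as well. Gstm1 read 1096 and 1418 on its brightest probe, a log2 ratio of 0.25, and 219 and 221 on the other, a log2 ratio of -0.11. Gstm5 read 107 and 112, a log2 ratio of -0.05.

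Nfe2l2, Keap1, Nqo1, Hmox1 and Hmox2 were described together, and the 5 genes lay above 0 by their brightest probes, with a median log2 ratio of 0.87, although Hmox1 turned to -0.05 with normexp and Hmox2 to -0.28 as a mean over probes. None reached 2-fold. Other known NRF2 targets are given under their own roles and lay on both sides of 0. Nfe2l2, which encodes NRF2, measured 168 ± 17.0 on the nondiabetic and 352 ± 35.3 on the diabetic array, a log2 ratio of 0.95. Keap1, the adaptor that sends NRF2 for degradation, read 251 ± 25.1 and 495 ± 49.6, a log2 ratio of 0.87. Nqo1, a quinone reductase and a standard NRF2 target, read 165 ± 16.6 and 354 ± 35.5, a log2 ratio of 0.99. These 3 genes were 1.93-fold, 1.82-fold and 1.98-fold higher in diabetic mice, each with 1 probe and a software error of 0.20 or 0.21 on the log2 scale. Centring on the median ratio put Nqo1 at 1.01, just past 2-fold. With normexp the log2 ratios of Nfe2l2, Keap1 and Nqo1 were 0.69, 0.78 and 0.79.

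Heme oxygenases break heme down to biliverdin, iron and carbon monoxide. Hmox1, the inducible form, read 286 ± 28.7 on the nondiabetic and 319 ± 32.0 on the diabetic array on its brightest probe (A_51_P263965), a log2 ratio of 0.04. Its other probe (A_55_P2029687) read 18.2 ± 2.91 and 54.5 ± 5.88, which is 2.75-fold higher, a log2 ratio of 1.46. The mean over these probes was 0.75. Hmox2, the constitutive form, had probes on opposite sides of 0. Its brightest probe read 1581 and 1816, a log2 ratio of 0.08, and the other read 251 and 176, a log2 ratio of -0.63.

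The NADPH oxidase of phagocytes joins the membrane subunits gp91phox (Cybb) and p22phox (Cyba) with cytosolic subunits that include p47phox (Ncf1) and p40phox (Ncf4). Of the 4 subunit genes among the 41, 3 lay below 0 and 1 above, none by 2-fold, with a median log2 ratio of -0.48. Cybb, the catalytic subunit, measured 32.0 ± 3.89 on the nondiabetic and 19.6 ± 2.97 on the diabetic array, a log2 ratio of -0.83 with an error of 0.28, and -0.27 with normexp. Cyba, its membrane partner, read 2068 and 1670.1 on its brightest probe, a log2 ratio of -0.43, and 175 and 133 on the other, a log2 ratio of -0.52. Both probes of Cyba lay on the same side. Ncf4, an organizer in the cytosol, read 137 ± 13.9 and 102 ± 10.5, a log2 ratio of -0.54, or -0.34 with normexp. Ncf1, the organizer that is phosphorylated on activation, read 174 ± 17.5 and 307 ± 30.8, a log2 ratio of 0.70, opposite to the other 3.

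Granulocytes and monocytes carry the phagocyte oxidase, and their markers are given beside it. Of 20 listed granulocyte and monocyte markers 18 were named on the arrays, 15 of them well above background in nondiabetic and 13 in diabetic mice. Their summed intensity was 44787 and 43479, a log2 ratio of -0.16 after scaling, and the median over the 15 with a ratio or bound was -0.34, with 5 above 0 and 10 below. Itgam read highest, at 34686 and 35189, and its other probes, at 284 and 142 and at 111 and 49.2, were 2.17-fold and 2.46-fold lower in diabetic mice. Such sums and orders rest on intensities, which depend on how each probe responds and do not rank the amounts of RNA of different genes. Without Itgam the log2 ratio of the sums was -0.40. Mpo, the myeloperoxidase of granulocyte precursors, read 2731 and 1851, a log2 ratio of -0.68. Mmp8, a collagenase of neutrophil granules, was at least 17.0-fold lower in diabetic mice. S100a8 read 52.2 on the nondiabetic and 20.4 on the diabetic array, a log2 ratio of -1.48. By their brightest probes, Cd14 was at -0.72, Lyz2 at -0.63, Ctsg at -0.56, Csf1r at -0.34 and Prtn3 at -0.10. Ngp was at least 1.51-fold lower. Other markers of the list were higher, with log2 ratios of 0.94 for Adgre1, 0.56 for Camp and 0.50 for Elane. Fcgr3 and S100a9 were at 0.32 and 0.10. Ltf, Fcnb and Cebpe were well above background on neither array. The part of such cells in the oxidase values was not tested.

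**Figure D3:**
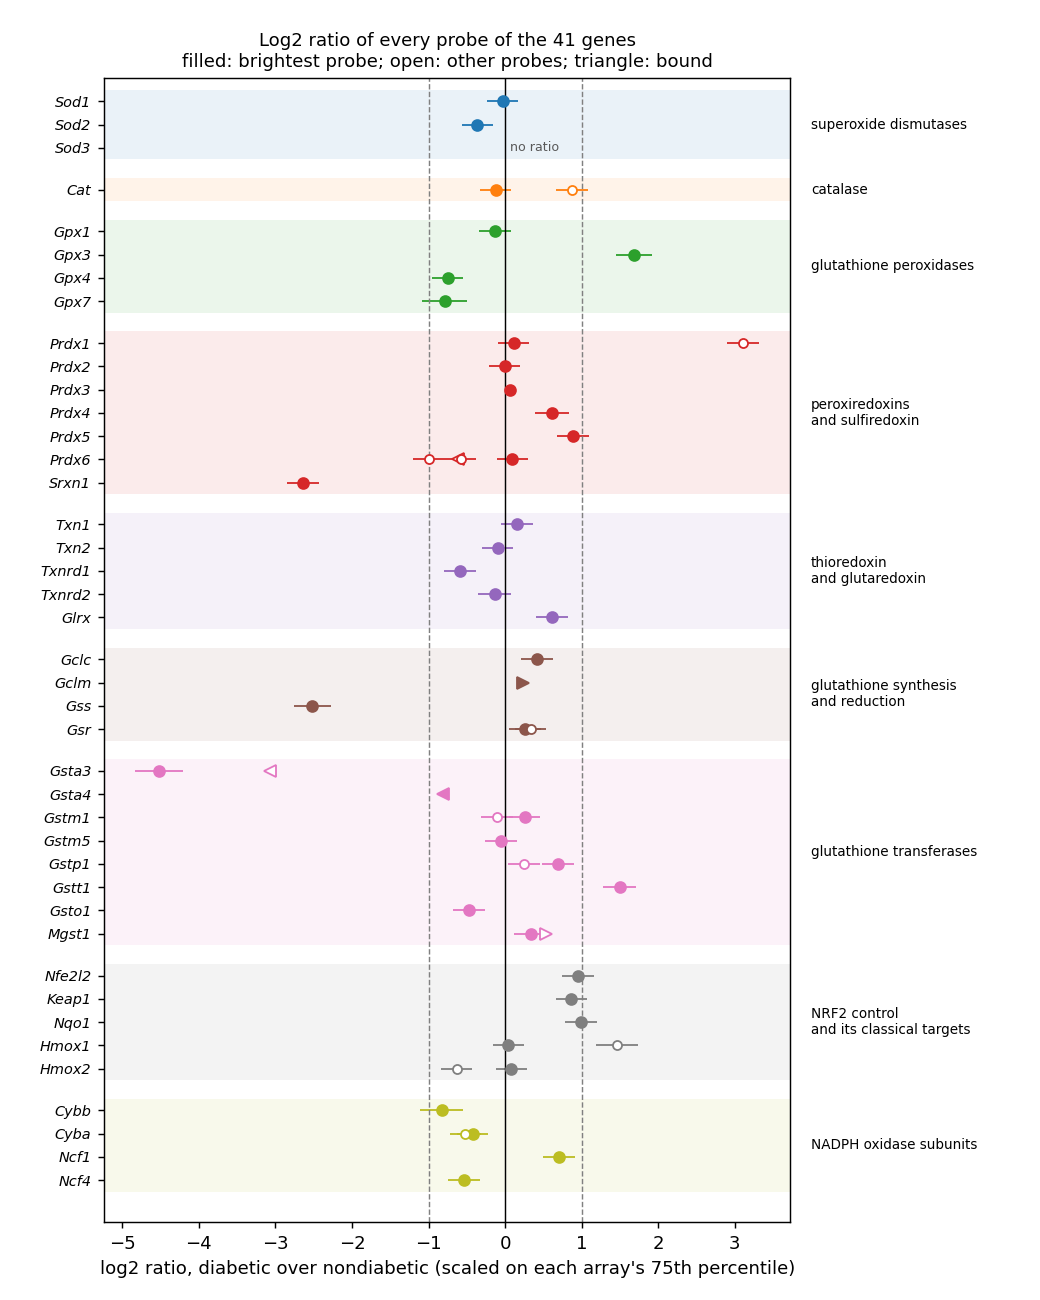
Log2 ratio, diabetic over nondiabetic, of each member probe for which a ratio or bound was available, by role. Filled symbols are the brightest probe, open symbols the other probes, triangles are bounds that point away from 0, bars are the software's error of the ratio, and dashed lines mark 2-fold. Gsta3, Srxn1 and Gss lie left of the dashed lines, Gpx3 and Gstt1 right of them, as do the second probes of Prdx1 and Hmox1.

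The size of the differences varied with signal. All probes measured on both arrays were divided by intensity into 3 groups of equal size. In the brightest group, 418 of 5221 named genes (8.01%) and 0 of 22 members were past 2-fold in either direction. Those 22 members ran from -0.75 for Gpx4 to 0.89 for Prdx5. In the middle group, 1129 of 4502 named genes (25.1%) and 2 of 9 members were past 2-fold. In the dimmest group these counts were 861 of 3744 (23.0%) and 3 of 7. The 5 members past 2-fold thus all came from the dimmest and middle groups, where such ratios were also more frequent among all genes.

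The errors in the files cover spots and not mice. On 237 probes with at least 5 spots, the between-spot SD of the log2 ratio had a median of 0.25 in the dimmest group, 0.13 in the middle and 0.07 in the brightest. The software's error of a member probe's log2 ratio had a median of 0.20. Different probes of a gene also disagreed. Of the 9 members with several probes measured on both arrays, 4 (44.4%) had ratios of opposite sign and 3 (33.3%) had ratios more than 2-fold apart. Among all 3245 such genes the shares were 48.9% and 35.4%. In all, 30 members had 1 probe, so Gpx3, Srxn1, Gss and Gstt1 had no second probe to be compared with.

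Further genes of these pathways were listed by function. Of 102 listed genes, 100 had a named probe and 89 a ratio or bound, of which 11 were higher by at least 2-fold and 9 lower by as much. Among all named genes these shares were 11.0% and 10.1%, the background for the counts of each list that follows. The median log2 ratio of the 89 genes was 0.06.

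Among 23 other genes of peroxide removal with a value, 5 were higher by at least 2-fold, 2 lower by as much, and the median log2 ratio was 0.53. Pon3, a paraoxonase that hydrolyses lactones, read 33.6 on the nondiabetic and 225 on the diabetic array, a log2 ratio of 2.63. Txnrd3, a reductase for thioredoxin and glutathione, read 16.8 and 48.1, a log2 ratio of 1.41. Msrb2, which repairs oxidized methionine in mitochondria, read 884 and 2219, a log2 ratio of 1.21. All 3 were measured by 1 probe each. Selenop, the plasma carrier of selenium, read 394 and 984, which is 2.30-fold higher after scaling. Gpx8, a peroxidase of the endoplasmic reticulum, went the other way, from 67.2 in nondiabetic mice to below the reliable range in diabetic mice, at least 7.25-fold lower. Gpx2, a glutathione peroxidase of epithelia, and Glrx5, a mitochondrial glutaredoxin, lay just past 2-fold, the former 2.02-fold higher and the latter 2.01-fold lower. Txnip, which binds and inhibits thioredoxin and responds to glucose, read 1826 on the nondiabetic and 3141 on the diabetic array, a log2 ratio of 0.67. Its other probe read 961 and 1598, a log2 ratio of 0.62.

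Among 23 other genes of glutathione transfer and turnover with a value, 2 were higher by at least 2-fold, 5 lower by as much, and the median log2 ratio was -0.07. Ggt1, which cleaves extracellular glutathione, was not well above background in nondiabetic mice and read 71.6 in diabetic mice, at least 6.46-fold higher. Ggct, a cyclotransferase in the same cycle, read 704 and 110.2, a log2 ratio of -2.79. Hagh, the glyoxalase that frees glutathione from its lactoyl conjugate, read 213 and 52.0, a log2 ratio of -2.15. Ggt1 was thus higher, and both Ggct and Hagh were lower, in diabetic mice. Gsto2, an omega-class transferase, was at least 5.76-fold lower, and it read 53.4 in nondiabetic mice. Gpx8, described above, was also on this list. Slc7a11, the cystine carrier that feeds glutathione synthesis, was well above background on neither array, at 2.26 and 2.19.

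Among 15 other genes of NADPH oxidases and oxidant production with a value, the median log2 ratio was 0.05. Xdh, the xanthine dehydrogenase that can produce superoxide, read 36.9 on the nondiabetic array and lacked the flag for well above background on the diabetic array, at least 3.98-fold lower. Rac1, a GTPase that can activate the oxidase, read 4989.9 and 7789, a log2 ratio of 0.53. Rac2, its blood cell form, was printed 10 times and read 465 and 520.0, a log2 ratio of 0.04. Nox4, an oxidase that releases hydrogen peroxide, read 34.3 and 47.2 on its brightest probe, a log2 ratio of 0.34, and its other probes were not well above background.

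Among 29 other genes of the NRF2 pathway and NADPH supply with a value, 3 were higher by at least 2-fold, 2 lower by as much, and the median log2 ratio was 0.24. Blvrb, biliverdin reductase B, read 16.3 and 76.7, a log2 ratio of 2.12. Blvra, biliverdin reductase A, read 242 and 172 on its brightest probe, a log2 ratio of -0.61, and its other probe was at -0.74. Nfe2l3, a relative of NRF2, read 33.4 and 113, a log2 ratio of 1.64. Bach2, a repressor that binds related sites, read 259 and 804 on its brightest probe, a log2 ratio of 1.52 that the other probe did not share, at -0.40. Of the genes lower in diabetic mice, Abcc2, an exporter of glutathione conjugates, was at least 5.28-fold lower. Akr1b8, an aldo-keto reductase, was printed 10 times and read 32.4 and 17.0, a log2 ratio of -1.05. Small Maf proteins pair with NRF2 or with BACH1 on the same DNA elements. Mafg, a small Maf protein that pairs with NRF2, read 1404 and 1836 on its brightest probe, a log2 ratio of 0.27, and its other probes were at -0.49 and -1.99. Bach1, a repressor of Hmox1, read 91.1 and 75.3, a log2 ratio of -0.39. Me1, malic enzyme, which makes NADPH, was at least 1.88-fold higher and well above background in diabetic mice only.

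The labelled cell type was checked on its markers. Kit read 4635 on the nondiabetic and 4735 on the diabetic array, a log2 ratio of -0.09. Ly6a, which encodes Sca-1, read 475 and 701, a log2 ratio of 0.44. Both markers of the gate were well above background on both arrays, as were Cd34 and Flt3, with log2 ratios of 0.22 and 0.19. The 10 stem and early progenitor markers had a summed intensity of 14020.4 and 17317, a log2 ratio of 0.19, and Cd34 read highest. Over these 10 genes the median log2 ratio was 0.24, with 8 above 0 and 2 below. Slamf1, a surface marker of stem cells, was at least 2.59-fold higher in diabetic mice. Mecom, a transcription factor of stem cells, was 2.30-fold lower by its brightest probe and at -0.16 on the other, and Procr was at -0.59. Of 11 erythroid markers, 10 were well above background on each array. Their summed intensity was 6749 and 10841, a log2 ratio of 0.57 after scaling, which was 0.18 without Hba-a1 and 0.93 without Car2. Slc4a1, the anion exchanger of red cells, read 124 and 529, a log2 ratio of 1.98. The median over the 10 genes was -0.02, with 5 above 0 and 5 below. Car2 read 2790.1 in nondiabetic and 2679 in diabetic mice, and Hba-a1 read 1984 and 4967, the highest intensities of the list on the respective arrays. Red cell precursors are rich in peroxiredoxin 2, catalase and Gpx1. The members Prdx2, Cat and Gpx1 were at -0.01, -0.12 and -0.13 by their brightest probes, and the other Cat probe was at 0.87. The part of red cell precursors in these values was not tested.

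Markers of other cells were present too. The 8 B cell markers had a summed intensity of 756 on the nondiabetic and 1149.6 on the diabetic array, where Vpreb1 read highest, with Ms4a1 and Ebf1 well above background on neither array. The 10 T and NK cell markers had 4986 and 4262, where Nkg7 read highest, with Cd8a and Ncr1 on neither. The 10 stroma and endothelium markers had 2281 and 3381, where Sparc read highest, with Col1a1, Col3a1 and Cdh5 on neither. After scaling, the log2 ratios of these sums were 0.49 for B cell, -0.34 for T and NK cell and 0.45 for stroma and endothelium markers. Without Pecam1, which read 162 and 936, the last of these was 0.09, without Kdr it was 0.70, and without Nkg7 the T and NK cell value was -0.13. The medians over genes with a ratio or bound were 0.55 for B cell, -0.36 for T and NK cell and 0.06 for stroma and endothelium markers, the last with 3 genes above 0 and 3 below. Their part in the values of the 41 genes was not tested.

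NRF2 binds the antioxidant response element, whose core was searched as TGACNNNGC on both strands of RefSeq promoter windows of 300 bases (GRCm38.p6). Windows were matched for 34 of the 41 genes, and 9 of these (26.5%) held the core in at least 1 window, against 3781 of 27025 genes (14.0%) in the table. By windows the counts were 9 of 44 (20.5%) and 4071 of 32851 (12.4%). The 9 genes were Gsta3, Nfe2l2, Srxn1, Gstm5, Gclm, Prdx1, Mgst1, Txnrd1 and Sod1. A match describes letters and not a bound site, and windows were not matched for Gclc, Gsr, Gsta4, Hmox1, Ncf4, Prdx6 and Sod3. The matches are shown for the 2 members at least 2-fold lower that held the core, for the gene of NRF2 itself and for Prdx1, whose probes differed most. Each is printed 5′ to 3′ on the strand of the gene with the core in capitals, and a core on the opposite strand appears as its reverse complement. The printed stretch of Gsta3 lies at chr1:21240454-21240482, with the gene on the plus strand. That of Nfe2l2 lies at chr2:75704885-75704913, with the gene on the minus strand. Those of Srxn1, at chr2:152105542-152105570, and Prdx1, at chr4:116685456-116685484, belong to genes on the plus strand. The cores of Gsta3 and Nfe2l2 lie on the strand of the gene, those of Srxn1 and Prdx1 on the opposite strand.
Gsta3: aactcaggcaTGACATTGCatttttcttc
Nfe2l2: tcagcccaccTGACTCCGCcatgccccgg
Srxn1: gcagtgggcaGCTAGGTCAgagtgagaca
Prdx1: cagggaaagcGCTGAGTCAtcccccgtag
Counted from the gene start, the core began at position -121 in Gsta3, -240 in Nfe2l2, -133 in Prdx1 and 28 in Srxn1. The Gsta3, Srxn1, Nfe2l2 and Prdx1 genes had log2 ratios of -4.52, -2.64, 0.95 and 0.11 by their brightest probes, so members with the core lay on both sides of 0.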

How the data were processed

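Each array held Cy3-labelled RNA of LSK cells, and the authors deposited scanner files from Agilent Feature Extraction (version 11.5.1.1), whose processed intensity had been background-corrected within the array and not normalized between arrays (grid build mm9). A deposited table held the same intensity times 1 constant per array.

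Intensity was converted to log2, scaled by subtracting the 75th percentile of the array's non-control spots, and averaged over a probe's spots. Outlier spots of either array were dropped on both, which removed 1 of 72 member spots (Gsta4). Probes were named through their transcripts by RefSeq (GRCm38.p6), which named 31845 of 59305 spots (53.7%). The software's flag on the majority of spots made a probe well above background. A gene counted as higher or lower at 2-fold by its brightest probe. The arrays share 1 slide and 1 scan, and with 1 array per group no test was made.

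The members and lists were chosen with earlier results of these data known. Named genes were the 41 members with every probe, up to 5 genes past 2-fold from each list by size, further pathway genes (Rac1, Rac2, Nox4, Mpo, Slc7a11, Txnip, Mafg, Bach1 and Me1), Kit, Ly6a, Cd34, Flt3 and the gene of highest intensity in each marker list. Gpx2, Glrx5, Blvra, Car2, Slc4a1, Slamf1, Mecom, Procr, Pecam1 and Kdr were named after their values were seen. The markers well above background on neither array were also named after their values were seen. So was every granulocyte and monocyte marker other than Mpo and Itgam. Marker sums without 1 gene were added after the data were seen. Some genes of the lists are not reported here.

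Alternatives were normexp (offset 50, on median spot intensity), quantile normalization, median centring, loess, no dim filter, probes well above background on both arrays, a floor, the mean over probes, the authors' table and outlier spots kept. Python 3.11.15 (numpy 2.4.6, pandas 2.3.3, matplotlib 3.10.9) and R 4.3.3 (limma 3.58.1) were used, and the steps were tested on simulated data.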

Additional observations from a re-analysis of the deposited data

How the results depend on the processing

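The main counts were 2 members higher by at least 2-fold and 3 lower by as much, with a median log2 ratio of 0.05. With normexp the count of higher members was 0 and that of lower members 3. Over all genes normexp gave 597 higher and 497 lower, in place of 1667 and 1538. Gpx3 and Gstt1, 3.20-fold and 2.82-fold higher in the main setting, then had log2 ratios of 0.80 and 0.86. Normexp changed the background method, the input intensity and the offset together, and the cause was not tested. The other 9 alternatives gave 2 or 3 higher and 3 or 4 lower. The 3rd higher member was Nqo1 with median centring (1.01) and Prdx1 as a mean over probes (1.61), and the 4th lower member was Gsta4 without the dim filter (-2.64). The median ran from 0.03 to 0.07 over all 10 alternatives. The 5 members past 2-fold kept their side and their direction under each alternative except normexp, where 3 did. Signs turned for Sod1 and Hmox1 with normexp, for Prdx2 with median centring, and for Cat, Prdx6 and Hmox2 as a mean over probes. No paired analysis was possible because only 1 array was made per group. Signal over background limits the dim members: negative controls had a median intensity of 2.35 on the nondiabetic and 2.32 on the diabetic array, and the lowest intensity well above background was 10.2 and 10.1. On the nondiabetic array, 1 of 308 negative controls read 466 and the next highest 10.7.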
